A study of Rattus norvegicus with 6 samples.

Results

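Serotonin and alpha-2 adrenergic receptors were examined in the lumbar spinal cord of rats with bone cancer pain (BCP). They are 10 of the 30957 genes in the deposited gene table, chosen by symbol: the serotonin receptors Htr1a, Htr1b, Htr1d, Htr2a, Htr2c, Htr3a and Htr7, and the alpha-2 adrenergic receptors Adra2a, Adra2b and Adra2c. Of these, 9 had counts and were tested, and Htr7 was listed at 0 in all 6 libraries. The BCP group comprised 3 libraries (BCP 1 to 3) from female adult Wistar rats given living Walker 256 cells, a rat breast carcinoma line, in the marrow cavity of the left tibia. The sham group comprised 3 libraries (sham 1 to 3) from rats of the same strain and sex that underwent the same injection with heat-killed cells. All tissue was the injected side of the lumbar enlargement, taken without meninges on day 14, and the labels do not say whether each library came from 1 rat. The p-values therefore measure the spread between these libraries, and the sham arm still carries the surgery and the dead tumor cells.

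Descending pain control is exerted by serotonin neurons of the raphe nuclei and noradrenaline neurons of the locus coeruleus and neighbouring groups, which project from the brainstem to the dorsal horn. There the response depends on the receptor. The 5-HT1 receptors and the alpha-2 receptors couple to Gi/o proteins, which lower cyclic AMP, open inwardly rectifying potassium channels and reduce transmitter release, and alpha-2 agonists given to the spinal cord relieve pain. The 5-HT2 receptors couple to Gq and phospholipase C, the 5-HT3 receptor is a cation channel, and the 5-HT7 receptor couples to Gs, so that serotonin can also excite the cells it reaches.

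The libraries held from 11779485 to 15004290 counts on genes. Across the 14908 genes tested with edgeR's quasi-likelihood test and Benjamini-Hochberg adjustment, 2352 were higher and 1805 lower in BCP at an adjusted p under 0.05. This split depended on the scaling: it turned to 2134 against 2401 with upper quartile scaling, and it was 2673 against 1262 with library size only and 3615 against 359 when libraries were scaled to their neuron markers, which moved the median log2 fold change of all genes from -0.01 to 0.12. A fit that changed the test as well as the values, limma on FPKM, gave 2443 against 966. Lists of cell type markers also moved. Of 12 neuron markers 7 were lower and none higher, with a summed level of 6156 to 6465 CPM (counts scaled to library size) in sham and 5633 to 6031 in BCP. All 7 tested oligodendrocyte markers were lower (39115 to 44423 CPM in sham, 28112 to 31287 in BCP), 5 of 8 microglia markers were higher (224 to 286 against 594 to 700 CPM), and all 7 tested T cell markers were higher (6.08 to 6.63 against 49.2 to 56.5 CPM). Of 7 astrocyte markers 1 was higher and 3 lower, whereas their summed level was 6481 to 6716 CPM in sham and 7580 to 9656 in BCP. Of 4 tested motor neuron markers 2 were lower, and of 5 tested endothelial markers 1 was higher. Of 5 tested markers of meninges and fibroblasts 1 was lower, with Col1a2 listed at 0. Dorsal root ganglion markers, with Mrgprd at 0 in all libraries, summed to 11.4 to 14.8 CPM in sham and 7.94 to 9.46 in BCP, and 1 of 4 tested was lower. In bulk tissue, fewer cells of a type and less RNA per cell cannot be told apart.

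The sequences just upstream of the 3 alpha-2 receptor genes are shown because these paralogs answer to the same transmitter and the only receptor that passed the test, Adra2a, is among them. Each is the 250 bases before the start of the gene in RefSeq on GRCr8, a build other than the Rnor_6.0 of the counts, 5′ to 3′ on the gene's strand, with GC boxes (GGGCGG or its reverse complement CCGCCC) in capitals.

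Adra2a, chr1:263066530-263066779, + strand: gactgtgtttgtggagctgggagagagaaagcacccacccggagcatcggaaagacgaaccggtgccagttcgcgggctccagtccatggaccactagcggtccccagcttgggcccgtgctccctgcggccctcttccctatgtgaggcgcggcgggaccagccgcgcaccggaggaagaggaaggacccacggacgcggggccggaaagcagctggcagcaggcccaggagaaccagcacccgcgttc

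Adra2b, chr3:135038231-135038480, + strand: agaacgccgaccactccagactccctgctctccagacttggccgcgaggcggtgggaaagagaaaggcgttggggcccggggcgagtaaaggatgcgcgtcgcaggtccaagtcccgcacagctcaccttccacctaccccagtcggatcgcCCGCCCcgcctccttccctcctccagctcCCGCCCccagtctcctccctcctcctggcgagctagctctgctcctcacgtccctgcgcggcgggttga

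Adra2c, chr14:79697477-79697726, - strand: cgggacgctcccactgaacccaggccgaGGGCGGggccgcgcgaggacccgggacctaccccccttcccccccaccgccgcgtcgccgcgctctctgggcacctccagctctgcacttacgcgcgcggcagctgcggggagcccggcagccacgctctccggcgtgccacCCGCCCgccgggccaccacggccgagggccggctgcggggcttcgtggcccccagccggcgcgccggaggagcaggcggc

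The Adra2a window held no GC box, whereas those of Adra2b and Adra2c held 2 each. Of all 33469 RefSeq promoter windows of this length, 30.5% held at least 1 on either strand. The GC content was 67.6% for Adra2a, 68.0% for Adra2b and 80.4% for Adra2c, against a median of 51.2% over all windows. Of the 10 receptors 7 had an entry, and Htr1d, with 3 GC boxes, was the other one with a match. The cyclic AMP response element TGACGTCA, which reads the same on both strands and was searched apart from the GC box, was found in none of the 7 and in 1.59% of all windows. A match of letters is a description of the window and not evidence of a bound site.

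Levels were compared between receptors as FPKM, which is scaled to gene length (plot of receptor levels). Htr2c stood highest, with a median of 22.6 FPKM over the 6 libraries. Next came Htr1b at 7.97, Adra2a at 7.10 and Htr2a at 6.42 FPKM. The ranges of these neighbours overlapped: Htr1b was above Adra2a in 5 of 6 libraries and Adra2a above Htr2a in 4 of 6, the sham libraries and BCP 3 placing Adra2a higher and BCP 1 and BCP 2 placing Htr2a higher. Adra2c had a median of 4.12 FPKM and overlapped with Htr1a, at 2.83. Htr3a followed at 2.08, Htr1d at 0.706 and Adra2b at 0.255 FPKM, each below its neighbour in every library. Shares were taken of the summed FPKM of the 9 receptors with counts, without Htr7. The Gq-coupled serotonin receptors made up 50.3% to 53.7% of this sum in sham and 52.7% to 56.8% in BCP. The alpha-2 receptors made up 20.6% to 24.2% in sham and 19.2% to 21.9% in BCP.

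**Figure D1:**
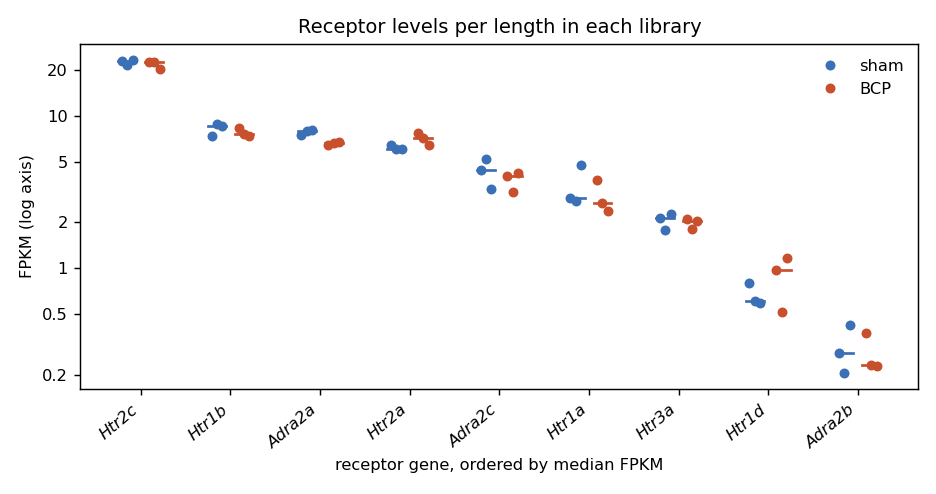
FPKM (log axis) of the 9 receptors with counts in each of the 3 sham and 3 BCP libraries, where points are libraries and short lines are group medians. Htr2c lies above 20 FPKM in every library and Adra2b below 0.5, and the groups overlap for every receptor but Adra2a and Htr2a.

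The comparison of BCP with sham asked whether spinal receptors of descending control differ in bone cancer pain. One receptor, Adra2a, was lower and none was higher at an adjusted p under 0.05, so that 1 of 9 passed the test (and 1 had an unadjusted p under 0.05), against 27.9% of all genes tested (15.8% higher, 12.1% lower). None passed with a change of more than 2-fold, as 6.45% of all genes did. Log2 fold changes (BCP over sham) were below 0 for 7 receptors and above 0 for 2, with a range of -0.29 to 0.36 and a median of -0.13, against -0.01 over all genes. Of all genes, 7792 were below 0 and 7116 above. The libraries of the groups did not overlap in normalised CPM for 1 receptor, Adra2a, whereas they did not overlap for 41.4% of all genes. The 95% interval of the change lay within 2-fold either way for 8 of 9 receptors, the exception being Htr1d (plot of receptor changes). Scaled to the neuron markers, 4 receptors were below 0 and 5 above, Adra2a no longer passed, and Htr2a passed instead as higher. Of all genes, that scaling placed 4318 below 0 and 10590 above. The median under it was 0.0076 for the receptors and 0.12 for all genes.

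**Figure D2:**
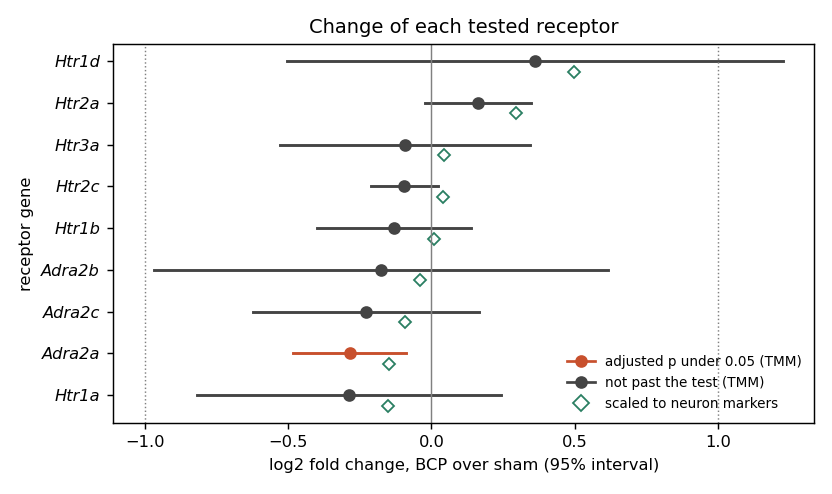
Log2 fold change of each tested receptor, BCP over sham, from edgeR with TMM scaling (circles, with 95% intervals) and with libraries scaled to neuron markers (diamonds). Dotted lines mark a 2-fold change, and Adra2a, at -0.29 with an interval of -0.48 to -0.09, is the one receptor past the test under TMM.

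Adra2a encodes the alpha-2A adrenergic receptor, the subtype through which clonidine-like drugs chiefly act on pain. Its model is the whole locus on chromosome 1, 274766283 to 274769081 (Rnor_6.0), without an intron, and its counts were 281, 321 and 339 in sham 1, 2 and 3 and 213, 257 and 243 in BCP 1, 2 and 3. In CPM these were 21.4, 22.4 and 22.9 in sham and 18.0, 18.3 and 18.4 in BCP. Every BCP library was below every sham library, as it was for 19.8% of all genes. The means were 22.2 ± 0.752 and 18.2 ± 0.217 CPM (SD, n = 3 each). The log2 fold change was -0.29 (SE 0.09, adjusted p = 0.0271, edgeR's quasi-likelihood test with Benjamini-Hochberg adjustment), a change of -18.0% with a 95% interval of -28.4% to -6.05%. The call rested on each of 5 libraries: without sham 2 or 3, or BCP 1, 2 or 3, the adjusted p was 0.0648 to 0.0873 in the same edgeR test. DESeq2 gave an adjusted p of 0.0883. The neuron markers were lower as well, and with libraries scaled to them the log2 fold change of Adra2a was -0.15 (adjusted p = 0.311 in edgeR). That scaling shifts every gene by about the same amount, the median of all genes from -0.01 to 0.12. The part of neurons or of any other cell type in this result was not tested.

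The other alpha-2 receptors did not pass. Adra2c, the alpha-2C receptor, which occurs on spinal interneurons and on nerve terminals, had 7.69, 9.0 and 5.74 CPM in sham and 6.84, 5.28 and 7.04 in BCP. Its groups overlapped, and its log2 fold change of -0.23 had an interval of -0.62 to 0.16 (adjusted p = 0.414 in edgeR), which includes the value of Adra2a. Adra2b, the alpha-2B receptor, known chiefly from blood vessels and thalamus, had 12 to 26 counts a library and 1.14, 0.837 and 1.76 CPM in sham against 1.52, 0.928 and 0.908 in BCP. Its interval, -0.97 to 0.61, covered almost a 2-fold decrease. The ratio of Adra2a to Adra2c FPKM was 1.88 ± 0.484 in sham and 1.77 ± 0.299 in BCP (SD, n = 3 each). The groups overlapped in this ratio, with an exact two-sided permutation p of 0.7. The smallest p that 3 against 3 can give is 0.1, so this permutation test could not have passed the threshold. Whether the change differs between the subtypes was therefore not decided. The summed FPKM of the 3 genes was 12.5 ± 0.788 in sham and 10.7 ± 0.562 in BCP (SD, n = 3 each).

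The Gi/o-coupled serotonin receptors did not pass the test. Htr1a, the 5-HT1A receptor, which also serves as the autoreceptor of serotonin neurons, had 3.73, 3.56 and 6.14 CPM in sham and 4.81, 3.36 and 2.95 in BCP. Sham 3 stood above the other 5 libraries, with 91 counts against 39 to 57. The log2 fold change was -0.29 (SE 0.25, interval -0.82 to 0.24, adjusted p = 0.448 in edgeR) and it was 0.015 without sham 3. Htr1b, the 5-HT1B receptor, a terminal autoreceptor and heteroreceptor and a target of triptans, had 11.5, 13.8 and 13.3 CPM in sham and 12.8, 11.4 and 11.1 in BCP. These groups overlapped, with a log2 fold change of -0.13 and an interval of -0.40 to 0.14. Htr1d, the 5-HT1D receptor, the other target of triptans, had only 8 to 17 counts a library, and its log2 fold change of 0.36 had an interval of -0.50 to 1.22, too wide at this depth to tell a decrease from a 2-fold increase.

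The Gq-coupled receptors Htr2a and Htr2c were the most deeply counted, and their intervals were the narrowest. Htr2a, the 5-HT2A receptor, had 30.1, 28.3 and 28.5 CPM in sham and 35.3, 32.7 and 29.2 in BCP. BCP 1 and BCP 2 stood above all sham libraries and BCP 3 stood between sham 1 and sham 3, whereas in FPKM, which carries no TMM scaling, BCP 3 at 6.45 was just above sham 1 at 6.4. The log2 fold change was 0.16 (SE 0.09, interval -0.02 to 0.35, adjusted p = 0.195 in edgeR). It was above 0 under all 16 alternatives and passed under 1 of them, scaling to the neuron markers (0.30, adjusted p = 0.0239 in edgeR). Htr2c, the 5-HT2C receptor, whose transcript is edited from adenosine to inosine by ADAR enzymes, had 128, 120 and 129 CPM in sham and 123, 121 and 109 in BCP. BCP 3 was the lowest library. With 1444 to 1916 counts a library, the interval of its log2 fold change of -0.09 was -0.21 to 0.02 (adjusted p = 0.240 in edgeR).

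The pair of 5-HT2 genes is the one in which the ratio within a library separated the groups. The ratio of Htr2c to Htr2a FPKM was 3.6, 3.58 and 3.84 in sham and 2.95, 3.13 and 3.16 in BCP. All BCP libraries lay below all sham libraries, with means of 3.67 ± 0.146 and 3.08 ± 0.115 (SD, n = 3 each). The ratio does not depend on how the libraries are scaled to each other. The exact two-sided permutation p was 0.1, the smallest that 3 against 3 can give, and 0.7 after Benjamini-Hochberg adjustment over the 7 pairs of receptors of like coupling that were compared, a set chosen after values had been seen. In the 6 other pairs the groups overlapped, with exact permutation p of 0.4 to 0.9.

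**Figure D3:**
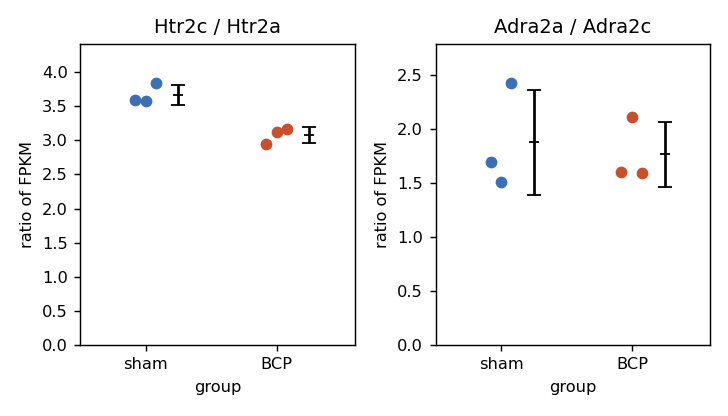
Ratio of FPKM of Htr2c to Htr2a (left) and of Adra2a to Adra2c (right) in each sham and BCP library, with the mean and SD of 3 libraries beside the points. The BCP libraries lie at 2.95 to 3.16 on the left, below the sham libraries at 3.58 to 3.84, and the groups overlap on the right.

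Htr3a, the subunit that every 5-HT3 channel needs, had 50 to 68 counts a library. Its level was 4.34, 3.63 and 4.59 CPM in sham and 4.22, 3.57 and 4.01 in BCP, and the groups overlapped. The log2 fold change was -0.09 with an interval of -0.53 to 0.34. Htr7, the Gs-coupled 5-HT7 receptor on chromosome 1 (254549214 to 254671610), was listed at 0 counts and 0 FPKM throughout. Rpl8, Yme1l1 and Wbp11, genes that nearly every cell uses, were listed at 0 in all libraries too, so the listing does not show that Htr7 was not expressed. It overlaps AC080157.1, which had 0 to 3 counts a library.

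Gene models set how much of each receptor was counted. For Htr1a, Htr1b, Htr1d and the 3 alpha-2 genes the length behind the FPKM equalled the span of the locus, from 1125 bases for Htr1d to 4047 for Adra2b. Htr2c had a model of 5463 bases in a locus of 233150 bases on chromosome X that also holds the small nucleolar RNA SNORA35, with 2 to 5 counts a library. Of the lncRNAs deposited beside the genes, 3 lay within 10 kb of a receptor. NONRATT014985.2, 84 bases from Htr1a (chromosome 2, 36247981 to 36249095), had 79, 114 and 49 counts in sham and 74, 84 and 100 in BCP. NONRATT010589.2, 408 bases from Htr2a (chromosome 15, 56665114 to 56665603), had 12, 14 and 21 counts in sham and 9, 13 and 9 in BCP. Neither differed beyond the spread between libraries, with log2 fold changes of 0.22 (SE 0.31) and -0.45 (SE 0.34), adjusted p of 0.834 and 0.653 in edgeR and unadjusted p of 0.487 and 0.226. The lncRNAs varied more than the genes, and 1.97% of the 12157 tested passed. The one that overlaps Htr3a, NONRATT028524.2, had 0 to 3 counts and was not tested.

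The genes around the receptors were taken from 6 lists of serotonin and noradrenaline signaling. Of 66 tested rows 13 were higher and 14 lower (40.9%, against 27.9% of all genes), 5 of them by more than 2-fold, and the median log2 fold change was -0.12 (plot of list changes). The lists were chosen with earlier results of these data known, Gnas entered with overlapping rows, and shares at like counting depth were not compared. The split was 16 higher and 2 lower with the neuron scaling and 12 against 20 with upper quartile scaling. The neuron scaling raised the log2 fold changes of all genes together, their median from -0.01 to 0.12, so small decreases shrink under it whatever the gene. Of 25 called rows, at most 4 per list and direction in order of p, 16 passed without each library in turn and 13 under the neuron scaling.

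**Figure D4:**
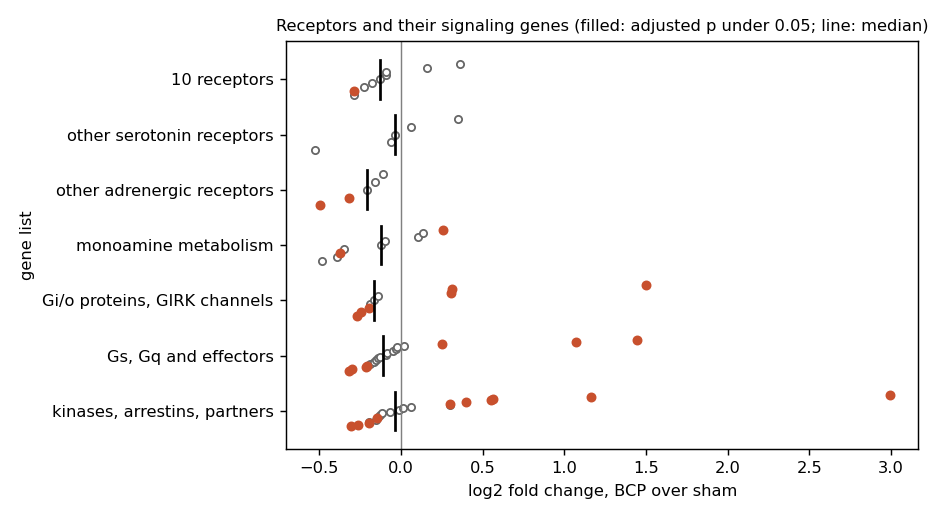
Log2 fold change, BCP over sham, of the 9 tested receptors and of the tested genes of 6 signaling lists, where filled points passed an adjusted p under 0.05 in edgeR and vertical lines are list medians. The receptors lie between -0.29 and 0.36, and the widest spread, up to 2.99 for Rgs1, is among kinases, arrestins and partners.

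Of the other serotonin receptors none of 5 tested passed in edgeR or DESeq2, none had an unadjusted p under 0.05, and the median log2 fold change was -0.03. Htr5a, a Gi/o-coupled receptor and the highest in CPM of this list, had 6.03 ± 0.766 CPM in sham and 5.77 ± 0.680 in BCP (SD, n = 3 each). Of the other adrenergic receptors 2 of 5 tested were lower and none higher, both of them alpha-1 receptors, which couple to Gq. Adra1a had 32.2, 29.7 and 34.2 CPM in sham and 25.5, 26.7 and 24.7 in BCP. Adra1b had 9.29, 10.5 and 8.64 CPM in sham and 6.67, 6.35 and 7.11 in BCP. Neither gene's groups overlapped, and the log2 fold changes were -0.32 (SE 0.09, adjusted p = 0.00910) and -0.50 (SE 0.15, adjusted p = 0.0192) in edgeR's quasi-likelihood test. Adra1a lost the call without sham 3 (adjusted p = 0.0554 in edgeR), and Adra1b without sham 2 or BCP 2 (0.0801 to 0.0958) and with DESeq2. Under the neuron scaling neither passed, at -0.18 and -0.36. The other adrenergic receptors plotted did not pass (plot of adrenergic receptors).

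**Figure D5:**
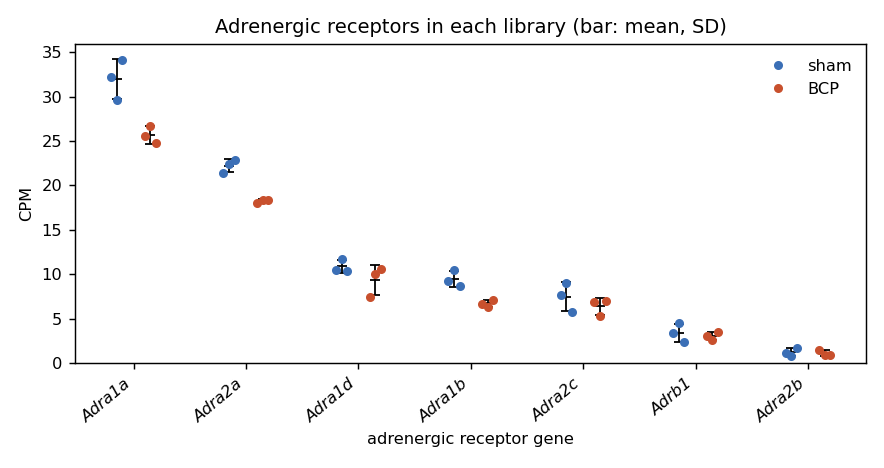
CPM of 7 adrenergic receptors in each library, with black bars for the mean and SD of 3 libraries. The sham and BCP points are apart for Adra1a, Adra2a and Adra1b, the 3 that passed the test, and mix for the others.

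Among genes of monoamine synthesis, transport and breakdown, 1 of 9 tested was higher and 1 lower. Slc29a4, a low-affinity monoamine transporter, was lower, at 25.8 ± 2.20 CPM in sham and 19.9 ± 3.0 in BCP (SD, n = 3 each), with a log2 fold change of -0.38 (adjusted p = 0.0135 in edgeR, 0.0834 to 0.0983 without sham 2 or BCP 3, and not past the test under the neuron scaling). It also did not pass in limma on FPKM (adjusted p = 0.0735). Genes of the descending neurons themselves, whose cell bodies lie in the brainstem, were named after their values were seen. Dbh, which makes noradrenaline, had 0 counts in 5 libraries and 1 in BCP 1. The noradrenaline transporter Slc6a2 had 0 counts in every sham library and 5, 1 and 2 in BCP 1, 2 and 3, the serotonin transporter Slc6a4 had 0 to 4 counts a library, and the vesicular transporter Slc18a2 had 0 to 7. These 4 were too low to be tested. Tph2, which makes serotonin, had 17 to 40 counts and was tested, with a log2 fold change of -0.09 (adjusted p = 0.849 in edgeR). The synthesis genes Th and Ddc of the same list were counted and tested too. Th had 32, 18 and 21 counts in sham and 15, 13 and 19 in BCP. Its log2 fold change was -0.48 (adjusted p = 0.344 in edgeR). Ddc had 73 to 105 counts a library and a log2 fold change of 0.11 (adjusted p = 0.707 in edgeR).

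Among inhibitory G proteins and their channels, 3 of 9 were higher and 3 lower. Kcnj5, a subunit of G protein-gated potassium channels, rose from 3.43 ± 0.656 to 9.79 ± 2.27 CPM (SD, n = 3 each), a log2 fold change of 1.5 (adjusted p = 1.41e-05 in edgeR), whereas Kcnj3, another subunit of these channels, was lower, at -0.24 (adjusted p = 0.0173 in edgeR). The alpha subunits moved both ways: Gnai2 (0.30) and Gnai3 (0.32) were higher, and Gnao1 (-0.27), the main one of neurons, and Gnaz (-0.20) were lower. The higher calls and that of Gnao1 held without each library in turn. Gnaz passed under only 4 of 16 alternatives, and DESeq2 (adjusted p = 0.0877), the exact test and limma on FPKM were among those that lost it. Kcnj3 was lost without sham 3 or BCP 2 (adjusted p of 0.0564 to 0.115 in edgeR), and Gnaz without sham 1, 2 or 3 or BCP 2 or 3 (0.0553 to 0.245). Under the neuron scaling the 3 higher genes passed and the 3 lower ones did not.

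Among stimulatory and Gq proteins, cyclases and phospholipases, 3 of 18 were higher and 4 lower. Adcy7, an adenylyl cyclase known from blood cells and microglia, was 15.3 ± 1.33 CPM in sham and 32.2 ± 1.06 in BCP, and Plcb2, a phospholipase of blood cells, was 2.77 ± 0.771 and 7.56 ± 0.765 (SD, n = 3 each). Their log2 fold changes were 1.07 (adjusted p = 3.4e-08) and 1.44 (adjusted p = 2.9e-05) in edgeR, and Plcb3 changed by 0.25 (adjusted p = 0.0344). Lower were Adcy5 (-0.30), Adcy6 (-0.21) and Gnas, the Gs alpha subunit, whose 2 overlapping rows gave -0.32 and -0.22. Plcb3 passed under 7 of 16 alternatives and lost the call with all libraries in DESeq2 (adjusted p = 0.0838), in the exact test and with upper quartile scaling. It also lost it without sham 1, 2 or 3 or BCP 1 or 2 (adjusted p of 0.0559 to 0.126 in edgeR), and Adcy6 without sham 1 or 3 or BCP 3 (0.0636 to 0.138). Adcy6 passed under 9 of 16 alternatives. With all libraries it lost the call in the exact test (adjusted p = 0.0569), with library size only (0.0626) and in limma on FPKM (0.161). None of the 4 lower rows passed under the neuron scaling.

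Among receptor kinases, arrestins, RGS proteins and partners, 6 of 20 were higher and 4 lower. Rgs1, which speeds the shut-off of Gi proteins and is known from lymphocytes and other immune cells, was 0.655 ± 0.180 CPM in sham and 5.30 ± 0.945 in BCP (SD, n = 3 each), a log2 fold change of 2.99. Rgs10, known from microglia, rose by 1.16, Arrb2, an arrestin, by 0.56 and Rgs19 by 0.55, with adjusted p for these 4 from 4.67e-08 to 0.000115 in edgeR. Lower were Dlg4 (-0.30), which encodes the synaptic scaffold PSD-95 and binds 5-HT2 receptors, Adarb1 (-0.26), which encodes an ADAR enzyme that edits the Htr2c transcript, Mpdz (-0.20), a scaffold that binds the 5-HT2C receptor, and Arrb1 (-0.15). Arrb1 passed under 5 of 16 alternatives, and with all libraries it lost the call in DESeq2 (adjusted p = 0.0958), in the exact test, with library size only and in limma on FPKM. It also lost it without sham 1, 2 or 3 or BCP 1 or 2 (adjusted p of 0.0695 to 0.178 in edgeR). Dlg4 and Adarb1 passed under all 16 alternatives, neuron scaling included, whereas under that scaling Mpdz was at -0.063 (adjusted p = 0.425 in edgeR) and Arrb1 at -0.011 (0.924). Mpdz also did not pass in limma on FPKM (adjusted p = 0.0903). The microglia and T cell marker lists were higher in the same libraries as Rgs1, Rgs10, Adcy7 and Plcb2, and their part in these changes was not tested.

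The genes whose profile over the 6 libraries was most like that of a receptor were found by the root mean square difference of centred log2 CPM, as a description. Closest were Dnajc18 (0.0111) and Rtn4 (0.0112) for Htr2c, Sestd1 (0.0135) and Traf3ip1 (0.0215) for Htr1b, Armc8 (0.0148) and Rrp1b (0.0272) for Htr2a, and Prr5 (0.0153) and Phlda3 (0.0173) for Adra2a. Prr5 had 33.4, 35.4 and 35.6 CPM in sham and 28.4, 29.2 and 29.6 in BCP. All its BCP libraries were below all its sham libraries, as for Adra2a and for 19.8% of all genes. Prr5 was picked for its likeness to Adra2a in these libraries, so this is no separate result. For Htr3a they were LOC100912512 (0.0243) and Tcerg1l (0.0318). The other 3 had looser matches, from 0.0781 to 0.0902: Lrrc23 and Klf4 for Htr1a, Ildr1 and Nsun5 for Adra2c, and Spa17 and Hcrtr2 for Adra2b. In the deposited KEGG annotation 8 of the receptors belonged to neuroactive ligand-receptor interaction, a term of 266 genes, and 6 to serotonergic synapse, a term of 110.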

How the data were processed

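RNA of ipsilateral lumbar enlargement was sequenced as stranded, ribosomal RNA-depleted libraries, 3 of BCP and 3 of sham rats, grouped by their labels. The authors filtered reads with Seqtk, mapped them with HISAT2 2.0.4 to Rnor_6.0 and calculated expression with StringTie 1.3.0. They deposited unnormalized counts of genes and lncRNAs. FPKM values deposited by the authors beside the counts were used for levels between genes and for ratios. The program that made the counts, its use of strand and its handling of reads with several locations are not given in the sources used here.

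The test was edgeR's (edgeR 4.0.16, R 4.3.3), with filtering by expression, TMM scaling, a robust quasi-likelihood fit of BCP against sham and Benjamini-Hochberg adjustment over all 14908 genes or 12157 lncRNAs tested. The threshold was an adjusted p under 0.05, and a 2-fold change was a second threshold. CPM uses the TMM library sizes. The depth was 11779485 to 15004290 gene counts a library, and the biological coefficient of variation was 7.72% for genes and 33.4% for lncRNAs. No libraries of a group were duplicates (their counts differed by 3.48 to 6.04 times the sampling variance, as chi-square over its degrees of freedom).

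The receptors, gene lists and tests were chosen with earlier results of these data known. Named by rule were all receptors, up to 4 genes per list and direction in order of p (the highest in CPM of a list with none past the test), and the 2 closest profiles of each receptor with at least 10 counts in every library, after adding 0.5 to CPM. Alternatives were DESeq2 1.42.0, edgeR's exact test, no filter, at least 10 counts in every library, RLE, upper quartile, library size only and neuron marker scaling, limma 3.58.1 on log2(FPKM + 0.1), the replicate number as a block, and each library left out in turn. For lncRNAs they also included the library sizes of the gene table and overlap alone. The code was tested on simulated counts. Promoter windows came from RefSeq on GRCr8. All per-sample columns were used. Some genes that the naming rule selects are not reported here.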

Additional observations from a re-analysis of the deposited data

How the results depend on the processing

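The number of receptors past the test was 1 in the main fit and 0 with DESeq2, with library size only and with limma on log2(FPKM + 0.1), and it ranged from 0 to 1 when libraries were left out in turn, being 0 without sham 2, sham 3, BCP 1, BCP 2 or BCP 3. Adra2a passed under 7 of 16 alternatives, and its log2 fold change stayed between -0.32 and -0.15. It was lost with DESeq2 (adjusted p = 0.0883), library size only (0.0621), limma on FPKM (0.0669) and neuron scaling (0.311). Neuron scaling also gave 1 receptor, but it was Htr2a and not Adra2a. No receptor passed with a 2-fold change under any alternative run. Under neuron scaling directions changed for values near 0: the log2 fold changes were 0.0076 for Htr1b, 0.041 for Htr2c, 0.044 for Htr3a and 0.075 for Htr5a. With libraries left out in turn directions changed for larger values too. The log2 fold changes ranged from -0.50 to 0.015 for Htr1a (-0.29 in the main fit) and from -0.44 to 0.16 for Adra2b (-0.18 in the main fit). The highest in both was without sham 3, and Htr5a was at 0.044 without sham 3 and 0.023 without BCP 3. The genes past the test numbered 3188 to 4535 and the pathway genes 18 to 32 over the alternatives. Depth limits Htr1d and Adra2b, with 8 to 26 counts a library.

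The replicate numbers did not pair the libraries: deviations from the group means correlated at -0.11, 0.054 and -0.035 between libraries of the same number. With the replicate number as a block, 1 receptor passed (Adra2a, adjusted p = 0.0451 in edgeR), as did 3814 genes, 25 pathway genes and 0 lncRNAs near receptors. Of the named pathway genes Plcb3, Gnaz and Arrb1 lost their calls with the block (adjusted p of 0.0543, 0.0568 and 0.0628 in edgeR).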
